A study of Drosophila melanogaster with 9 samples.

Results

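The RNAs described here are those of 3 translational repressors of the early Drosophila melanogaster embryo, pum (Pumilio), nos (Nanos) and brat (Brain tumor), out of 6440 genes listed in the deposited tables. They were picked by gene symbol, with earlier results of these data known, and all 3 are listed in all 9 libraries. Wild type embryos collected 0 to 3 h after egg lay were crushed to a cleared extract, and the labels name no transgene or strain. In ORB2 IP (3 libraries) the RNA-binding protein ORB2 was pulled down with the antibody fragment Fab anti-orb2 E8. In control IP (3 libraries) the Fab was anti-EGFR C1, against a receptor. Input (3 libraries) was RNA with no antibody named. RNA was sequenced after ribosomal RNA depletion. Nothing in the labels says that replicates came from separate embryo collections, so p-values measure the spread between these libraries, which may be technical.

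Pumilio is the founding PUF-domain protein and binds short UGUA-containing elements in 3′ untranslated regions (3′UTRs). Nanos is a zinc-finger protein made at the posterior pole of the embryo, where it joins Pumilio on hunchback (hb) mRNA, and Brat is a TRIM-NHL protein that is recruited with them and also binds RNA by itself. Together they shut off hb translation in the posterior part of the embryo, and Pumilio and Nanos also repress CycB mRNA in the germ line precursors. ORB2 belongs to the CPEB family, which binds U-rich elements in 3′UTRs and can repress or activate translation. The immunoprecipitates measure which mRNAs were recovered with each Fab, not how much of each protein was present. Recovery with ORB2 is read from ORB2 IP against control IP.

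In the Ensembl release 115 annotation (BDGP6.54; the authors' own build is not given in the sources used here), pum (FBgn0003165) lies on 3R from 9066343 to 9237682 on the minus strand and has 8 annotated transcripts. Gene brat (FBgn0010300) lies on 2L from 19133816 to 19179758 on the plus strand, with 5 transcripts. Gene nos (FBgn0002962, annotated there as nanos) lies on 3R from 19157238 to 19160202 on the plus strand, with 2 transcripts. The transcripts differ in length. The one with the longest 3′UTR measures 10223 nt for pum, with 4602 nt of 3′UTR, and 12088 nt for brat, with 8499 nt of 3′UTR. Among the 6394 listed genes found in the annotation those 3′UTRs are longer than 99.3% and 99.9% of the rest, against a median of 309 nt. The nos transcript measures 2349 nt and its 3′UTR 880 nt, longer than 79.7%. Alternative 3′UTRs run down to 1188 nt for pum and 593 nt for brat, and the tables sum each gene's transcripts, so the isoform cannot be told apart. Exons of brat overlap CG17568, Polr1D and an unlisted lncRNA, and those of nos overlap CG11779 and Nsun5, all on the opposite strand. No exon of pum overlaps another gene. The libraries are stranded, but whether the authors counted by strand is not stated in the labels.

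The number of reads per library is unknown, since the normalized counts are not whole reads. Normalized-count totals were 3952548 to 5368634 in ORB2 IP, 3504705 to 3747319 in control IP and 2625388 to 2856867 in input. ORB2 IP replicate 2 listed 108 genes at 0, against 5 to 14 in the other immunoprecipitates and 0 in input, and its lowest positive value was 5.70, against 0.755 to 1.73 in the other immunoprecipitates. Pairs of libraries were compared by Spearman correlation across genes, which are not independent replicates. ORB2 IP replicate 3 lay closer to the control IP libraries (0.929 to 0.953) than the other ORB2 IP libraries did (0.828 to 0.875). With ORB2 IP replicates 1 and 2 it correlated at 0.939 and 0.945, inside its range with control IP. Input replicate 1 lay closer to the immunoprecipitates (0.811 to 0.856) than the other inputs did (0.557 to 0.671). In whole embryos, fewer cells of a type and less RNA per cell cannot be told apart. All 6 maternal germline markers and 8 of the 10 early zygotic markers looked for were listed, and none of the 5 follicle-cell or 4 muscle, neuron and glia markers was. The tables list only genes with a TPM (transcript abundance scaled for length) above 1 in every input. The orb2 mRNA had normalized counts of 6661, 9610 and 8127 in ORB2 IP, against 49.7, 62.8 and 24.2 in control IP. Exons of orb2 overlap CG43783 on the same strand.

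The pum mRNA was far higher in ORB2 IP than in the other groups. Its normalized counts were 7292, 9125 and 5455 in ORB2 IP replicates 1 to 3, against 527, 513 and 446 in control IP. In input they were 396, 397 and 434. All ORB2 IP libraries stood far above the rest, and the lowest of them was 10.4 times the highest control IP value and 12.6 times the highest input value. Group means were 7291 ± 1835 in ORB2 IP, 495 ± 43.1 in control IP and 409 ± 21.9 in input (SD, n = 3 each). The spread was widest in ORB2 IP, at 25.2% of its mean, against 8.69% in control IP and 5.35% in input. Normalized counts are relative within a library, so more pum RNA and less of other RNA cannot be told apart.

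On the log2(normalized count + 1) scale, pum rose in ORB2 IP relative to control IP by 3.85 (SE 0.21, 95% interval 3.39 to 4.30; limma Benjamini-Hochberg adjusted p 1.41e-07). It ranked 20th from the top of the 6318 genes tested. Over input the difference was 4.12 (SE 0.24, 95% interval 3.58 to 4.66; limma adjusted p 3.28e-06), rank 30 of 6344. Without ORB2 IP replicate 3 the values were 4.04 and 4.32, and without input replicate 1 the value over input was 4.10. Control IP and input differed by 0.27 (SE 0.18, 95% interval −0.12 to 0.67; limma adjusted p 0.195), although the lowest control IP value lay above the highest input value. That small difference turned to −0.15 with libraries scaled to equal totals, to −0.36 and −0.38 in the TPM table (pseudocounts of 1 and 0.1) and to −0.083 with the trend of the values with transcript length removed. In that comparison pum ranked 2744 of 6355, and the median gene had 0.011. In TPM, pum stood at 400, 378 and 196 in ORB2 IP, at ranks 309, 277 and 494 of all listed genes. In control IP it was 18.0, 19.7 and 16.4 TPM (ranks 3409 to 3636) and in input 21.9, 26 and 22.5 TPM (ranks 3790 to 4221). By TPM, pum thus ranked higher in every ORB2 IP library than in any other library.

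**Figure D1:**
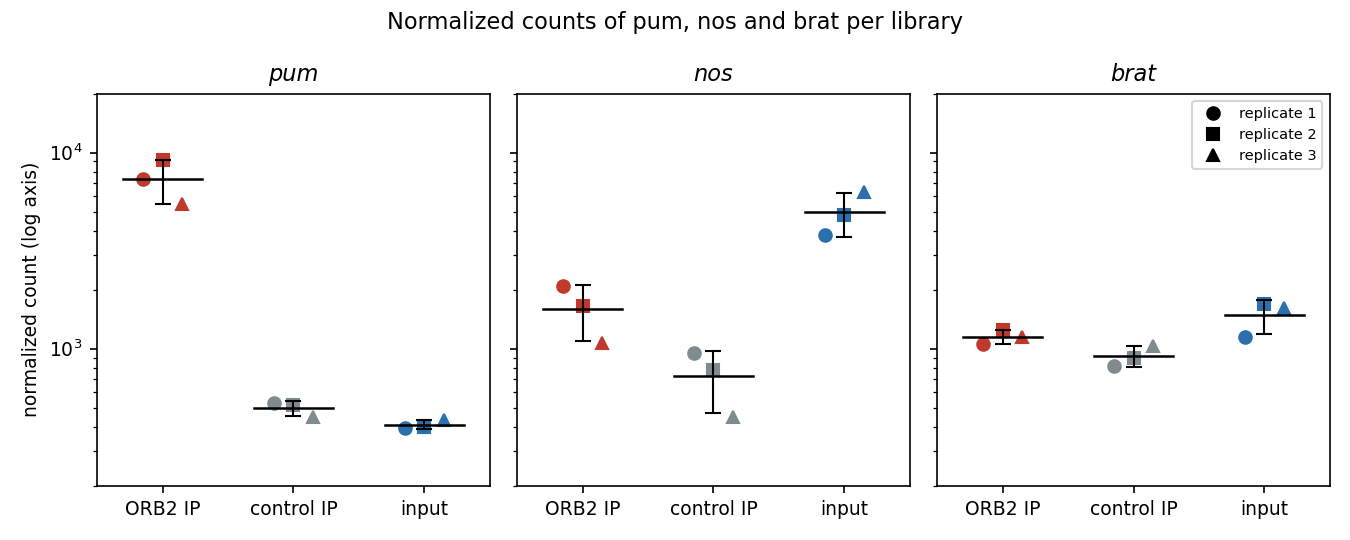
Normalized counts (log axis) of pum, nos and brat in the 3 libraries each of ORB2 IP, control IP and input. Symbols are replicates, the long line is the group mean and the error bar 1 SD. pum is high in ORB2 IP (5455 to 9125) and between 396 and 527 elsewhere, nos is highest in input (3788 to 6296) and lowest in control IP (448 to 947), and brat lies between 811 and 1691 in all 9 libraries.

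The nos mRNA was lower in both immunoprecipitates than in input, and higher in ORB2 IP than under the control Fab. Its normalized counts were 2090, 1648 and 1067 in ORB2 IP, against 947, 775 and 448 in control IP. In input they were 3788, 4809 and 6296. The 3 groups did not overlap, with input highest and control IP lowest, yet ORB2 IP replicate 3 was only 1.13 times control IP replicate 1. Means were 1601 ± 513 in ORB2 IP, 723 ± 254 in control IP and 4964 ± 1261 in input (SD, n = 3 each). As a share of all normalized counts, nos made up 0.0529%, 0.0307% and 0.0224% of ORB2 IP, against 0.0253%, 0.0221% and 0.0123% of control IP. On that measure ORB2 IP replicate 3 fell within the control IP range.

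The difference between ORB2 IP and control IP was 1.16 (SE 0.29, 95% interval 0.52 to 1.79; limma Benjamini-Hochberg adjusted p 0.00942), rank 270 of 6318. Without ORB2 IP replicate 3 it was 1.43. Relative to input, nos fell by 1.65 in ORB2 IP (SE 0.31; limma adjusted p 0.00323) and by 2.81 in control IP (SE 0.30; limma adjusted p 0.000273). Without input replicate 1 the values were −1.83 and −2.99. In control IP against input nos ranked 6346 of 6355 from the top, among the 10 most depleted genes of the comparison. In TPM it fell to 361, 215 and 120 in ORB2 IP and to 102, 93.6 and 51.6 with the control Fab, against 658, 991 and 1024 in input, where it ranked 208, 144 and 134 among all listed genes. Of the opposite-strand neighbours, CG11779 had a difference of 0.79 in ORB2 IP over control IP (limma adjusted p 0.0755) and Nsun5 was lower by −0.87 (limma adjusted p 0.00838). Their group means, between 59.8 and 289 normalized counts, were below those of nos.

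The brat mRNA differed little between ORB2 IP and control IP and was not called there. Its normalized counts were 1059, 1245 and 1150 in ORB2 IP, against 811, 897 and 1033 in control IP. In input they were 1151, 1691 and 1616. The immunoprecipitates did not overlap, but the gap was narrow, since the lowest ORB2 IP value was 1.03 times the highest control IP value. As a share of all normalized counts they did overlap, at 0.0268%, 0.0232% and 0.0241% in ORB2 IP against 0.0216%, 0.0256% and 0.0283% in control IP. In normalized counts, ORB2 IP and input overlapped. The difference over control IP was 0.34 (SE 0.17, 95% interval −0.028 to 0.70; limma Benjamini-Hochberg adjusted p 0.123) and did not pass the test. It passed at 0.48 with equal upper quartiles and at 0.62 after quantile normalization, and it turned to −0.021 with equal totals and to −0.43 with the length trend removed.

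Against input, brat differed by −0.35 in ORB2 IP (SE 0.23, 95% interval −0.86 to 0.16; limma adjusted p 0.226). Called under 4 alternatives, it reached −1.58 with the length trend removed (nos −1.44 there), −1.13 with equal totals, and −0.74 and −0.75 in the TPM table with pseudocounts of 1 and 0.1. In control IP brat fell by 0.69 relative to input (SE 0.21; limma adjusted p 0.0155). That call was lost without control IP replicate 1 (−0.61), control IP replicate 2 (−0.68), input replicate 2 (−0.58) or input replicate 3 (−0.62). In TPM brat stood at 78.8, 70.0 and 55.9 in ORB2 IP and at 37.5, 46.7 and 51.3 with the control Fab, against 86.2, 150 and 113 in input. The listed genes whose exons overlap brat on the opposite strand, CG17568 and l(2)37Cg (Polr1D in the annotation), had group means of 14.2 to 121 normalized counts.

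Counted together, 2 of the 3 genes were called higher in ORB2 IP over control IP and none lower by limma, also at an unadjusted p below 0.05. Of the 6318 genes tested, 42.5% were called, 20.8% higher and 21.6% lower. All 3 were higher without overlap in normalized counts, where 27.6% of genes were higher and 28.3% lower without overlap. As shares of all normalized counts, nos and brat overlapped between these groups. Over input, 1 was called higher and 1 lower, where 51.1% of 6344 genes were called, 26% higher and 25.1% lower. The same 2 genes did not overlap, against 30% of genes higher and 32.1% lower. In control IP over input, 2 were called lower and none higher by limma, also at an unadjusted p below 0.05, where 65.7% of 6355 genes were called, 32.3% lower and 33.5% higher. There 2 were lower and 1 higher without overlap, against 37.1% and 36.1% of genes. So few genes cannot be read against those shares.

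The calls over all genes moved with the scaling. Those in ORB2 IP over control IP, 1316 higher and 1366 lower, became 383 and 2179 with equal totals, 1736 and 999 with equal upper quartiles, and 1357 and 708 in the TPM table. Equal totals moved the median gene to −0.35, equal upper quartiles to 0.15 and the TPM table to 0.24. Taken relative to that median, under these and the other scalings, pum stood at 3.15 to 3.87, nos at 1.04 to 1.45 and brat at −0.42 to 0.66. In ORB2 IP over input, 1648 higher and 1593 lower became 604 and 3196 with equal totals (median gene −0.81) and 970 and 2096 in the TPM table (−0.41). In control IP over input, 2126 higher and 2050 lower became 1404 and 2859 with equal totals (−0.41) and 1173 and 3158 in the TPM table (−0.59).

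**Figure D2:**
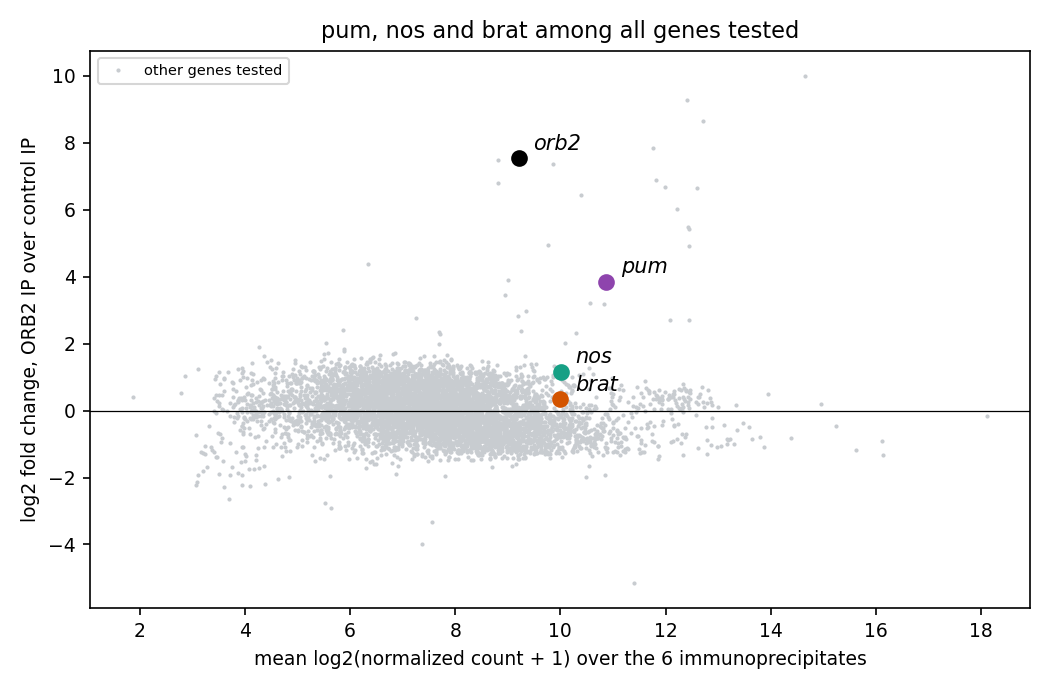
Log2 fold change of ORB2 IP over control IP against mean log2(normalized count + 1) over the 6 immunoprecipitates, for every gene tested (grey), with pum, nos, brat and orb2 marked. pum (3.85) lies well above most genes, nos (1.16) is at rank 270 of 6318 and brat (0.34) at rank 2114.

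Ratios between the RNAs within a library do not depend on how libraries are scaled. In ORB2 IP, pum was the most abundant of the 3 by TPM in every library, at 1.11, 1.76 and 1.63 times the level of nos. In control IP the TPM of nos was 5.65, 4.75 and 3.15 times that of pum, and in input 30.1, 38.1 and 45.5 times. The order by TPM was thus pum, nos, brat in all 3 ORB2 IP libraries, against nos, brat, pum in all 3 control IP libraries and all 3 inputs. In control IP replicate 3, nos (51.6) and brat (51.3) were nearly equal by TPM. The order depended on the measure. In normalized counts brat stood above nos in ORB2 IP replicate 3 (1150 against 1067). It also did in control IP replicates 2 (897 against 775) and 3 (1033 against 448). The ratio of pum to brat by TPM was 5.08, 5.41 and 3.50 in ORB2 IP, 0.479, 0.422 and 0.319 under the control Fab, and 0.254, 0.173 and 0.198 in input. For nos to brat the ratios were 4.58, 3.07 and 2.15 in ORB2 IP, 2.71, 2.00 and 1.01 under the control Fab, and 7.63, 6.59 and 9.04 in input.

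Tested on normalized counts, the log2 ratio of pum to nos stood above that of control IP by 2.69 in ORB2 IP, or 6.45-fold (2.21 ± 0.36 against −0.48 ± 0.43, SD, n = 3 each; two-sided exact permutation p 0.1, adjusted over 9 ratio comparisons 0.112). With 3 against 3 libraries 0.1 is the smallest p the test can give. The ratio of pum to brat was higher by 3.51, or 11.4-fold, with the same exact permutation p. The ratio of nos to brat differed by 0.82, with overlapping groups and an exact permutation p of 0.2. Within same-numbered libraries, taken as paired by the data, it differed by 0.76, 0.61 and 1.10, higher in ORB2 IP in all 3 pairs, where 0.25 is the smallest exact p that 3 pairs allow. Relative to input, the ratio of pum to nos was higher by 5.78 in ORB2 IP and by 3.09 in control IP, each without overlap and at the smallest p. The ratio of nos to brat was lower by −1.30 in ORB2 IP and −2.13 in control IP, and that of pum to brat higher by 4.47 and 0.96, again without overlap. Of the 9 ratio comparisons, 8 had groups that did not overlap. These comparisons share genes and libraries and are not independent. The share without overlap among other gene pairs was not computed, so the count cannot be read against it.

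**Figure D3:**
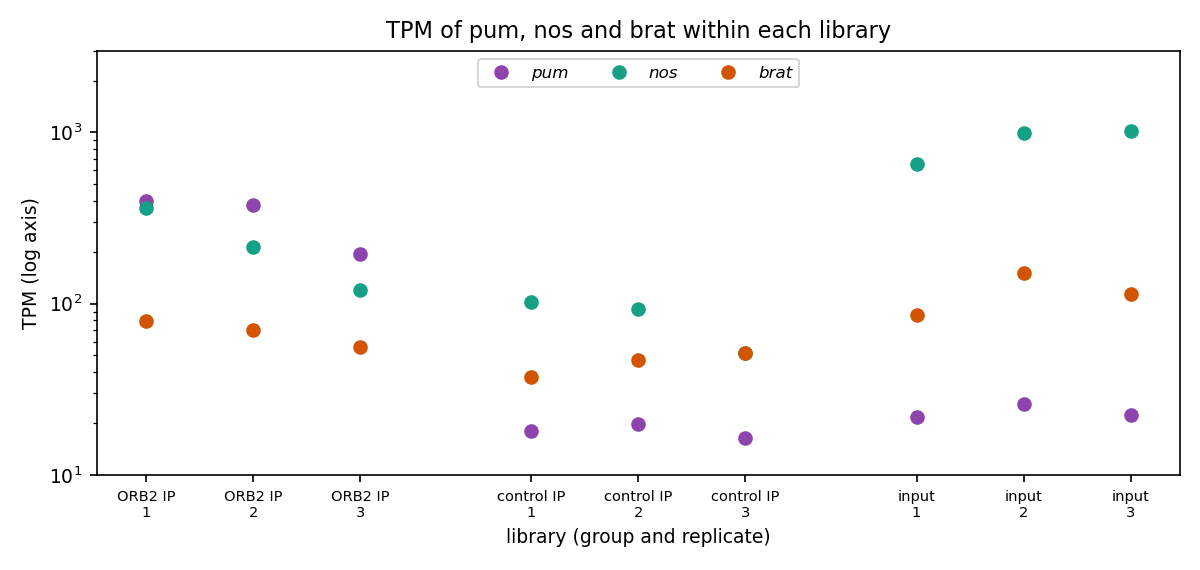
TPM (log axis) of pum, nos and brat in each of the 9 libraries, grouped as ORB2 IP, control IP and input. In ORB2 IP pum is on top in every library, while in input nos is on top and pum at the bottom. In control IP replicate 3 the points of nos (51.6) and brat (51.3) coincide.

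Genes whose profile over the 9 libraries was most like that of each RNA were taken from 4905 genes above a mean of 100 normalized counts. Likeness was the Euclidean distance between log2(normalized count + 1) values centred on each gene's mean. Nearest to pum were CG42676 (distance 1.21), Smr (1.58) and Rbfox1 (1.88), against a median distance of 6.01. Smr, a nuclear co-repressor, had normalized counts of 3224, 11094 and 4632 in ORB2 IP, against 669, 710 and 469 in control IP. Rbfox1, an RNA-binding protein, had 294, 432 and 498 in ORB2 IP, against 37.7, 67.2 and 77.0 in control IP. Exons of CG42676 and Smr, and of CG12170 and morgue below, overlap other annotated genes. Nearest to nos were Ggt-1 (0.55), CG12170 (0.55) and Snx1 (0.59), against a median of 3.92. Ggt-1, chosen by likeness over these same values, had 1286, 1185 and 705 in ORB2 IP. Under the control Fab it had 505, 436 and 281, and in input 2524, 4044 and 3769. Snx1, a sorting nexin, averaged 143 in ORB2 IP, 67.4 under the control Fab and 401 in input. The genes closest to brat were Hsc70-4 (0.34), a chaperone, morgue (0.34) and CG31211 (0.36), against a median of 1.75. None of the 3 RNAs was among the nearest of another, the least distant pair being nos and brat at 2.94. There brat ranked 1377 among the neighbours of nos, and nos 3883 among those of brat.

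Proteins through which the 3 repressors act form the first list of related genes, the cap-binding repressor eIF4EHP, 8 subunits of the CCR4-NOT deadenylase and the poly(A)-binding protein pAbp. Of these 10 mRNAs, 2 rose in ORB2 IP over control IP and none fell by limma or at an unadjusted p below 0.05. These were pAbp, with 2959, 3222 and 2399 in ORB2 IP, against 1540, 1673 and 1203 in control IP (0.96, SE 0.20; limma adjusted p 0.00434), and eIF4EHP, with 230, 258 and 206 against 133, 131 and 122 (0.83, SE 0.18; limma adjusted p 0.00529). The call on eIF4EHP was lost with equal totals, with all 9 libraries in one fit and with the length trend removed. Exons of eIF4EHP overlap Syx1A on the same strand, and those of Not1, Not3, Rga and twin overlap other annotated genes. Among the deadenylase subunits Not1 (0.44), Not3 (0.39), Not10 (0.094), twin (−0.034), Not11 (−0.096), Pop2 (−0.15), Rcd-1 (−0.17) and Rga (−0.33) did not pass, although Not1 and Not3 did at an unadjusted p below 0.05, and Not1 did with the replicate number as a block (limma adjusted p 0.0386). Signs of Not10, Not11, twin, Pop2, Rcd-1 and Not1 turned under at least 1 alternative. The list had a median of 0.030 against 0.00089 for all genes tested, and 2 of 10 is near the 20.8% of all genes called higher. Its count of calls was 1 with all 9 libraries in one fit and 4 with equal upper quartiles, with quantile normalization or with equal totals leaving out the 25 most abundant genes.

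Over input, 6 of those 10 were called higher and 1 lower in ORB2 IP, against 26% and 25.1% of all genes tested. In control IP the counts were also 6 and 1, against 33.5% and 32.3%. With equal totals, ORB2 IP had 4 higher and 3 lower, and control IP 5 higher and 2 lower. From TPM values, ORB2 IP had 4 higher and 2 lower, and control IP 3 of each. Both comparisons share the input libraries, in which replicate 1 stood apart from the other two for several of these genes. Not3, for example, had normalized counts of 615, 779 and 577 in ORB2 IP, against 265, 41.9 and 22.7 in input, and Not1 had 1091, 1440 and 1183 against 629, 186 and 150. Not10 was the one that fell, to 92.4, 46.5 and 69.7 in ORB2 IP, against 215, 327 and 333 in input.

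**Figure D4:**
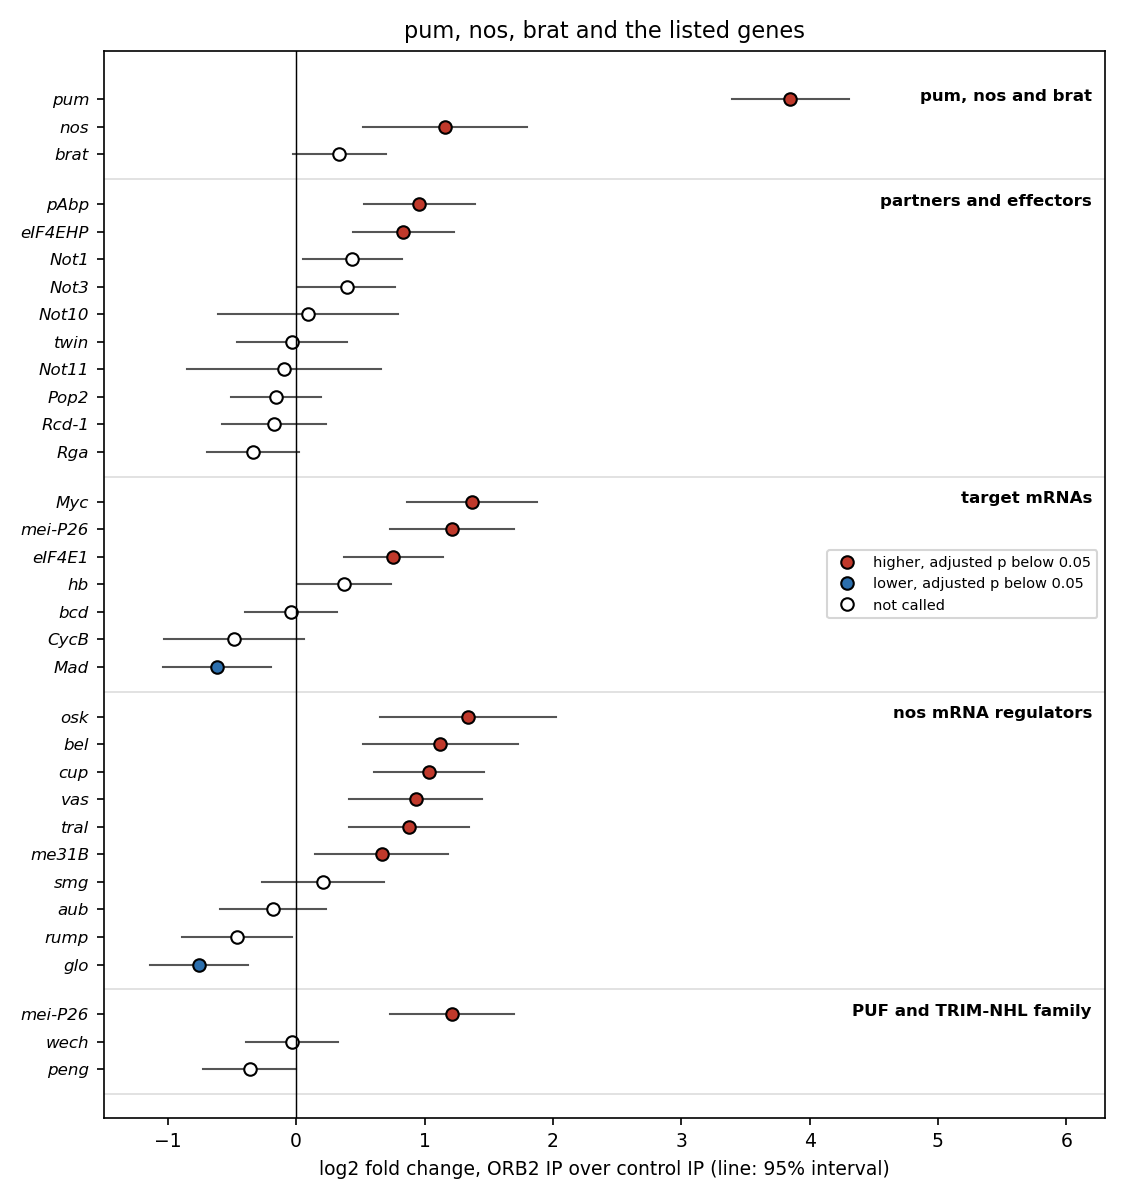
Log2 fold change of ORB2 IP over control IP with its 95% interval for pum, nos and brat and for the listed related genes. Red points were called higher, blue lower and open points were not called at an adjusted p of 0.05. pum (3.85) lies beyond all of the listed genes, of which osk (1.34) and Myc (1.37) are highest.

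Messenger RNAs known to be repressed by Pumilio, Nanos or Brat in the fly make up the second list, of which 7 of 9 were in the tables and tested. Of these, 3 were called higher in ORB2 IP over control IP and 1 lower, against 20.8% and 21.6% of all genes tested. With equal totals, and with the length trend removed, the counts were 2 and 2. Myc, a growth regulator repressed by Brat, had 636, 964 and 594 in ORB2 IP, against 257, 368 and 222 in control IP (1.37, SE 0.23; limma adjusted p 0.00201). The TRIM-NHL gene mei-P26 had 718, 734 and 502 in ORB2 IP, against 276, 358 and 212 in control IP (1.22, SE 0.22; limma adjusted p 0.00269). Its difference was 0.24 and no longer called with the length trend removed, and its annotated transcript with the longest 3′UTR has 23041 nt. The cap-binding factor eIF4E1 rose by 0.76 (SE 0.18; limma adjusted p 0.00708), lost with equal totals and with all 9 libraries in one fit. Mad, the transducer of BMP signals, was lower by −0.62 (SE 0.19; limma adjusted p 0.0230), and that call was lost in 8 of 20 alternatives, among them leaving out ORB2 IP replicate 1, control IP replicate 2 or control IP replicate 3.

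The textbook targets hb, CycB and bcd did not pass. For hb the normalized counts were 393, 508 and 434 in ORB2 IP, against 320, 366 and 341 in control IP, without overlap (0.37, SE 0.17; limma adjusted p 0.0931), and with the replicate block hb was called (limma adjusted p 0.0486), as it was with equal upper quartiles, quantile normalization and equal totals leaving out the 25 most abundant genes. CycB, the mitotic cyclin, had 4731, 5843 and 7370 in ORB2 IP, against 7268, 7910 and 9751 in control IP, with overlap (−0.49, SE 0.25; limma adjusted p 0.134). It was called lower with equal totals, quantile normalization, the length trend removed or ORB2 IP replicate 3 left out. bcd, the anterior morphogen, had 209, 219 and 216 against 223, 219 and 220, with a 95% interval of −0.40 to 0.32. The median of the 7 was 0.37, and their count of calls was 2 with all 9 libraries in one fit. Exons of Myc overlap annotated genes on both strands.

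Regulators of nos mRNA, from the Smaug repressor complex to the pole-plasm proteins that relieve it, form the third list. Of the 10, 6 were called higher in ORB2 IP over control IP and 1 lower, where 20.8% of all genes tested were called higher and 21.6% lower. The median was 0.77 against 0.00089 for all genes. With equal totals 3 were called higher and 2 lower. Highest was osk, the organiser of pole plasm, with 1945, 1750 and 994 in ORB2 IP, against 708, 821 and 357 in control IP (1.34, SE 0.31; limma adjusted p 0.00708). The helicase bel (1.12, SE 0.28), the translational repressor cup (1.04, SE 0.20), the germline helicase vas (0.93, SE 0.24) and tral (0.88, SE 0.21) followed, with limma adjusted p from 0.00310 to 0.00978. The calls on vas and tral were lost with equal totals. me31B, the helicase of the repressor complex, was higher by 0.67 (SE 0.24; limma adjusted p 0.0410), lost in 8 of 20 alternatives, among them leaving out ORB2 IP replicate 1 or 2 or any 1 control IP library. glo, which represses nos in the ovary, was lower by −0.76 (SE 0.18; limma adjusted p 0.00657), a call lost in the TPM table and with all 9 libraries in one fit. smg, aub and rump, at 0.21, −0.18 and −0.46, did not pass, and rump did with the replicate block (limma adjusted p 0.0390). Exons of osk, cup, vas, glo, aub and rump overlap other annotated genes.

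ORB2 IP replicate 3 held the lowest ORB2 IP value for 6 of these 10 mRNAs, and control IP replicate 3 the lowest control IP value for 7. The same libraries were lowest for nos. Over all listed genes above a mean of 10 normalized counts, those libraries were lowest for 35.3% and 43.9%. The part of these libraries in the result was not tested beyond leaving each out in turn, where 7 calls on the list became 6 to 8.

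Over input, 4 of the 7 target mRNAs (Myc, mei-P26, eIF4E1 and hb) were called higher and 1, CycB, lower in ORB2 IP, against 26% and 25.1% of all genes tested. In control IP those 4 were also called higher and none lower by limma or at an unadjusted p below 0.05, against 33.5% and 32.3%. Both comparisons share the inputs, of which replicate 1 again stood apart. The call on CycB was lost without ORB2 IP replicate 1 or 2 or input replicate 2 or 3. With equal totals, ORB2 IP had 4 higher and 3 lower, and control IP 4 higher and 2 lower. From TPM values these were 4 and 2 for ORB2 IP, and 3 of each for control IP. Myc had 83.3, 27.6 and 15.9 in input, and hb had 181, 50.5 and 45.6. Of the nos regulators 3 were called higher and 1, rump, lower in ORB2 IP, while in control IP 2 were higher and 4 lower over the same inputs. In ORB2 IP the counts were 1 and 2 with equal totals, and 2 and 1 without ORB2 IP replicate 2, input replicate 2 or input replicate 3. In control IP they were 2 and 6 with equal totals, 2 and 2 without control IP replicate 3 and 1 and 2 without input replicate 2.

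The relatives of pum and brat in the tables were peng, a PUF protein, and the TRIM-NHL genes mei-P26 and wech. Of these mei-P26, described above among the target mRNAs, was called in ORB2 IP over control IP, and the other two were not. With the length trend removed mei-P26 lost its call, while peng and wech (−0.65) were called lower, as peng was with equal totals (−0.72). peng had 411, 449 and 369 in ORB2 IP, against 492, 496 and 591 in control IP (−0.36, SE 0.17; limma adjusted p 0.0970), while in input it had 1020, 1541 and 1702. wech had 1323, 1304 and 1463 in ORB2 IP, against 1269, 1392 and 1530 in control IP (−0.033, 95% interval −0.39 to 0.33). Exons of peng overlap dod. The difference between pum and peng in ORB2 IP over control IP, 3.85 against −0.36, was not itself tested.

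**Figure D5:**
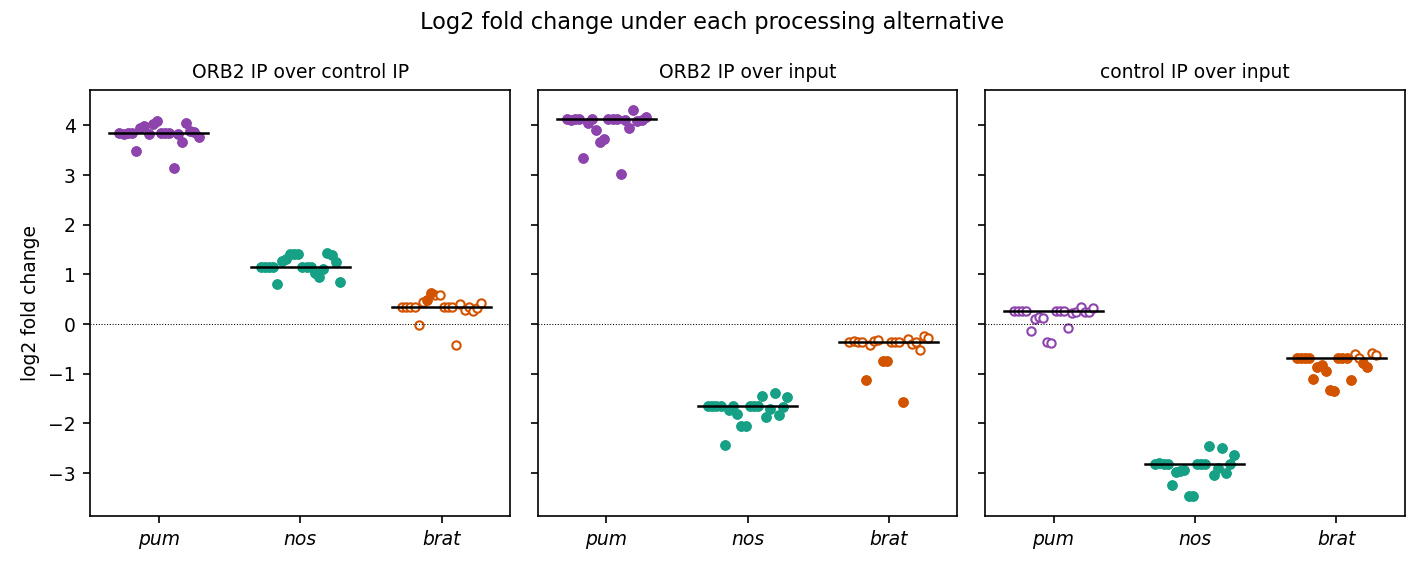
Log2 fold change of pum, nos and brat under 20 processing alternatives in each of the 3 comparisons. Filled points were called at an adjusted p of 0.05, open points were not, and the black line is the value given in the text. Every alternative kept the sign and the call of pum in both ORB2 IP comparisons and of nos in all 3, whereas brat in ORB2 IP over control IP ran from −0.43 to 0.62.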

How the data were processed

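The authors deposited 1 table of TPM and 1 of normalized counts. The deposited normalized counts are a signal of undefined scale. The submitters' processing notes name DESeq2 1.42.1, Salmon 1.9.1 and Trim Galore 0.6.5 with no order or role. Neither build nor annotation is given in the sources used here. Whole reads were not recovered, so no count model was run. Libraries were grouped by their titles.

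Each comparison was fitted on its 6 libraries with limma 3.58.1 (R 4.3.3, eBayes with trend) on log2(normalized count + 1), over genes averaging at least 10 normalized counts, two-sided, Benjamini-Hochberg adjusted over all genes and called below 0.05. The script was tested on simulated data. Ratios within libraries used exact permutation tests (scipy 1.17.1), adjusted over 9. Transcript lengths came from Ensembl release 115, where 6394 of 6440 genes matched. Figures used matplotlib 3.10.9.

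The genes and lists were chosen with earlier results of these data known. Named genes were pum, nos and brat, the 3 nearest profiles of each, and list members. Alternatives were pseudocounts, filters, scalings, the TPM table, a joint fit, no trend, a replicate block and leaving out each library. Removing the length trend (loess of each library's deviation from the gene mean) was chosen after seeing the data. Deviations of same-numbered libraries from their group means correlated across genes at 0.100 to 0.268 between ORB2 IP and control IP, each over 0.1, so these were taken as paired by the data, not by the labels. Between ORB2 IP and input the correlations were −0.187 to 0.180, and between control IP and input 0.0396 to 0.185. Not every pair there passed 0.1, so those were not taken as paired. Yet every control IP and input library correlated best with its own number in that comparison. Such correlations cannot settle which libraries shared an extract. The block changed no call on pum, nos or brat.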

Additional observations from a re-analysis of the deposited data

How the results depend on the processing

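Over 20 alternatives in each comparison, pum stayed called over control IP (3.14 to 4.10) and over input (3.03 to 4.32), and nos stayed called in all 3 comparisons (0.80 to 1.43, −2.44 to −1.39 and −3.47 to −2.46). The sign of brat in ORB2 IP over control IP turned with equal totals (−0.021) and with the length trend removed (−0.43), and the call appeared with equal upper quartiles (0.48) and quantile normalization (0.62). Over input in ORB2 IP brat was called with equal totals (−1.13), TPM with pseudocounts of 1 and 0.1 (−0.74 and −0.75) and the length trend removed (−1.58). In control IP over input brat ran from −0.86 to −0.58 with single libraries left out. There pum turned to −0.15 with equal totals, −0.36 and −0.38 in the TPM table and −0.083 with the length trend removed. The cause was not tested. Genes called in ORB2 IP over control IP numbered 2682, and 1775 with all 9 libraries in one fit. Leaving out single libraries gave 1691 (without control IP replicate 3) to 3066 there and 2011 (without input replicate 3) to 3678 in ORB2 IP over input, against 3241. The higher calls over control IP, 1316, numbered 864 when ORB2 IP replicate 2 was left out and 717 when control IP replicate 3 was. The planned 3′UTR motif description was not run, since no sequence was at hand.

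With 3 libraries per group, the replicate block cannot move a difference of group means, only its SE and p. For pum, nos and brat in ORB2 IP over control IP the block gave limma adjusted p of 1.88e-05, 0.00222 and 0.0789. There 3024 genes were called. Over input the block gave 2975 genes against 3241 in ORB2 IP and 4236 against 4176 in control IP. In ORB2 IP against input, 2 of 3 ORB2 IP libraries and 1 of 3 inputs correlated best with their own number. In control IP against input all 3 of each did. Counts of 10 or fewer listed genes moved by over 1.5 times in 6 of 180 cases. The 99 alternative values of the ratios, from pseudocounts, the TPM table, the block and leaving out libraries, kept their sign, but most could not have turned. The block leaves a difference of group means as it is, and the pseudocounts were small against these values. TPM ratios differed from those of normalized counts by nearly the same factor in every library. Leaving out a library cannot turn the sign where groups do not overlap. Removal of the length trend was not applied to the ratios. In ORB2 IP over input it put nos at −1.44 and brat at −1.58, the reverse of their order in the main fit (−1.65 and −0.35). Depth per library is unknown, so counting error could not be separated from replicate error.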
